A study of Rattus norvegicus with 59 samples.

Results

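Lpcat1, Napsa, Cebpa and Hps5 are 4 genes grouped here under the name of the alveolar type 2 cell, the lung cell that makes surfactant. They were taken by name from a table of lung gene expression, where all 4 were present among 2887 complete gene entries and all 4 were among the 1278 genes abundant enough to be tested. The exposed rats were male Fischer 344 animals (F344/DuCrl), 3 months old at purchase, that breathed crystalline silica at 15 mg/m3 by whole-body inhalation for 6 h per day on 5 days. Silica groups of 5 rats were examined at 6 times after exposure, namely 1 and 3, 6 and 9, and 12 and 18 months, each set against rats of the same strain, sex and source that breathed air, with 5 rats per air group and 4 at 9 months. No rat carried an engineered allele according to the labels, and each library came from a piece of lung, so every value is an average over all cells of that piece. The data address how these genes differed between silica and air lungs of the same time, and whether that difference changed over the 18 months.

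Surfactant is a film of lipid and protein that lowers the surface tension of the alveolus, and type 2 cells store it in lamellar bodies, which belong to the lysosome-related organelles. Inhaled silica is known to cause silicosis, a fibrosing lung disease, and in rats it is also known to load the alveoli with surfactant lipid and to enlarge type 2 cells. Lpcat1 encodes an acyltransferase that converts lysophosphatidylcholine to the saturated phosphatidylcholine of surfactant. Napsa encodes napsin A, an aspartic protease that takes part in maturing the surfactant protein B precursor. Cebpa encodes a transcription factor of the CCAAT/enhancer binding family needed for maturation of the alveolar epithelium, and the same factor also directs myeloid cell development. Hps5 encodes a subunit of BLOC-2, a complex that routes cargo to lysosome-related organelles, and its loss causes a form of Hermansky-Pudlak syndrome in humans.

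The name of the cell type was not tested, since the list of its genes used here includes Napsa, Lpcat1 and Cebpa themselves. Of that list of 44 alveolar type 2 and surfactant genes, 5 were in the table, namely Napsa, Lpcat1, Cebpa, Stard10 and Ppp1r14c. The rise of Stard10 and Ppp1r14c in silica lungs depended on scaling, as given below. Hps5 is not on the list of alveolar type 2 and surfactant genes and is counted below with genes of lysosome-related organelle biogenesis. The surfactant protein genes and other defining markers, such as Sftpc, Sftpb, Abca3 and Lamp3, were not analysed here. In whole lung tissue a change in the number of cells of a type and a change in RNA per cell cannot be told apart.

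Expression was given as FPKM, fragments scaled to transcript length and to the library's mapped total, which corrects for transcript length and allows levels of different genes to be compared. The entries analysed covered part of the genome, since 99.1% of the names known to the rat annotation as symbols lay on chromosome 1, where the 4 genes also lie. FPKM summed to between 12818 and 38613 per library, and to between 12025 and 16336 without the 1 most abundant entry. Sequencing depth was not given. A relative depth read from the smallest FPKM values ranged 5.19-fold over the 59 libraries and gave a two-sided exact permutation p of 0.111 to 0.746 between silica and air within the 6 times. Of 116 pairs of libraries within groups 0 were identical. The library labelled silica, 12 months, replicate 3 stood apart from its group. Of 157 genes whose silica values all lay above all air values at both 6 and 9 months, 148 (94.3%) lay within or below the air range in it at 12 months, against 7, 29, 18 and 17 in the other 4 silica libraries of that time. Results that rest on it are given with and without it.

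The 300 bases around the annotated start of 3 of the genes are shown because all 3 genes changed in the same direction, and so that the windows can be compared. The sequences are those of RefSeq on the rat assembly GRCr8, 250 bases before to 50 bases after the start, each written 5′ to 3′ on the gene's own strand. The windows are chr1:31644897-31645196 on the minus strand for Lpcat1, chr1:96896334-96896633 on the plus strand for Cebpa and chr1:106457171-106457470 on the minus strand for Hps5. Capitals mark each match to a motif searched.
Lpcat1: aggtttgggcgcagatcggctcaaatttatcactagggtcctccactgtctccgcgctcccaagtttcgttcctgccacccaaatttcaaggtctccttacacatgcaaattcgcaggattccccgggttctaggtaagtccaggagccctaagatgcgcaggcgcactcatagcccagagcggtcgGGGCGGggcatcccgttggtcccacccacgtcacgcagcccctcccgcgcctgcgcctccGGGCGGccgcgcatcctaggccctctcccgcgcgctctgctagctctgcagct
Cebpa: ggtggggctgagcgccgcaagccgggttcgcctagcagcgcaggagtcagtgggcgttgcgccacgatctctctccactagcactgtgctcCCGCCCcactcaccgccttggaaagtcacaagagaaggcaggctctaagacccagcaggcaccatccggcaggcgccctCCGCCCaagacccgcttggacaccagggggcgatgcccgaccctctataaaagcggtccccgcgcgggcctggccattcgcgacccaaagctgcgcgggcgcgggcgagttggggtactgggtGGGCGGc
Hps5: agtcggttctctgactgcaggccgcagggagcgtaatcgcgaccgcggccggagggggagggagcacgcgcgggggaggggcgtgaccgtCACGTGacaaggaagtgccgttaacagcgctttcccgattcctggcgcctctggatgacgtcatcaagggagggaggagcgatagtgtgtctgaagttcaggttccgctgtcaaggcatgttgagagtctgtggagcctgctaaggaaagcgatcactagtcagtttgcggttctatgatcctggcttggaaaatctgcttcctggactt
Of the 4 genes 3 matched the sequence table, and Napsa is named only. The motifs searched on both strands were CCAAT, the CCAAT box, TTGCNNAA, the consensus of CCAAT/enhancer binding proteins, CTCAAG, a core of sites bound by the lung factor NKX2-1, GGGCGG, the GC box, and CACGTG, an E-box. Lpcat1 held GGGCGG at bases 188 and 248 of its window. Cebpa held it at base 294 as written and at bases 92 and 171 as its reverse complement, and Hps5 held CACGTG at base 91. No match overlapped another, and CCAAT, TTGCNNAA and CTCAAG were not found in these 3 windows. Among 33469 promoter windows of the same length, 33.1% held GGGCGG, 6.42% CACGTG, 37.5% CCAAT, 10.6% TTGCNNAA and 15.8% CTCAAG. The windows were rich in G and C, with 63.0% in Lpcat1, 68.7% in Cebpa and 58.7% in Hps5, against a median of 51.7% over all windows. In that annotation each of the 4 genes is protein coding, and Hps5 overlaps LOC134483108, a long non-coding RNA. Whether fragments were counted by strand is not given in the sources used here, so FPKM of Hps5 can include reads of that RNA.

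All 4 genes rose in silica lungs, and they did so at every time except for Hps5 at 12 months, but some of these results depended on the processing. Averaged over the 6 times, Lpcat1 rose 1.59-fold, Napsa 1.56-fold, Cebpa 1.39-fold and Hps5 1.23-fold. A gene was called changed at an adjusted p under 0.05 in limma's moderated test on log2(FPKM + 0.5), with Benjamini-Hochberg adjustment across the 1278 tested genes, and fold changes are on that scale. At 3, 6 and 9 months and in the mean over times all 4 were called under every alternative run. At 1 month 1 of the 4 was called after median centring and 2 after quantile normalization. With the 12-month groups fitted alone 0 were called. At 18 months Napsa was not called after quantile normalization. Napsa was the most abundant of the 4, with a mean of 108 ± 31.9 FPKM (SD, n = 59 libraries) that ranked 15 of 2887 entries. Lpcat1 averaged 66.8 ± 18.7 FPKM and ranked 26, Cebpa averaged 13.7 ± 3.15 FPKM and ranked 213, and Hps5 averaged 2.79 ± 0.428 FPKM and ranked 834. This order, Napsa over Lpcat1 over Cebpa over Hps5, held in 59 of 59 libraries.

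**Figure D1:**
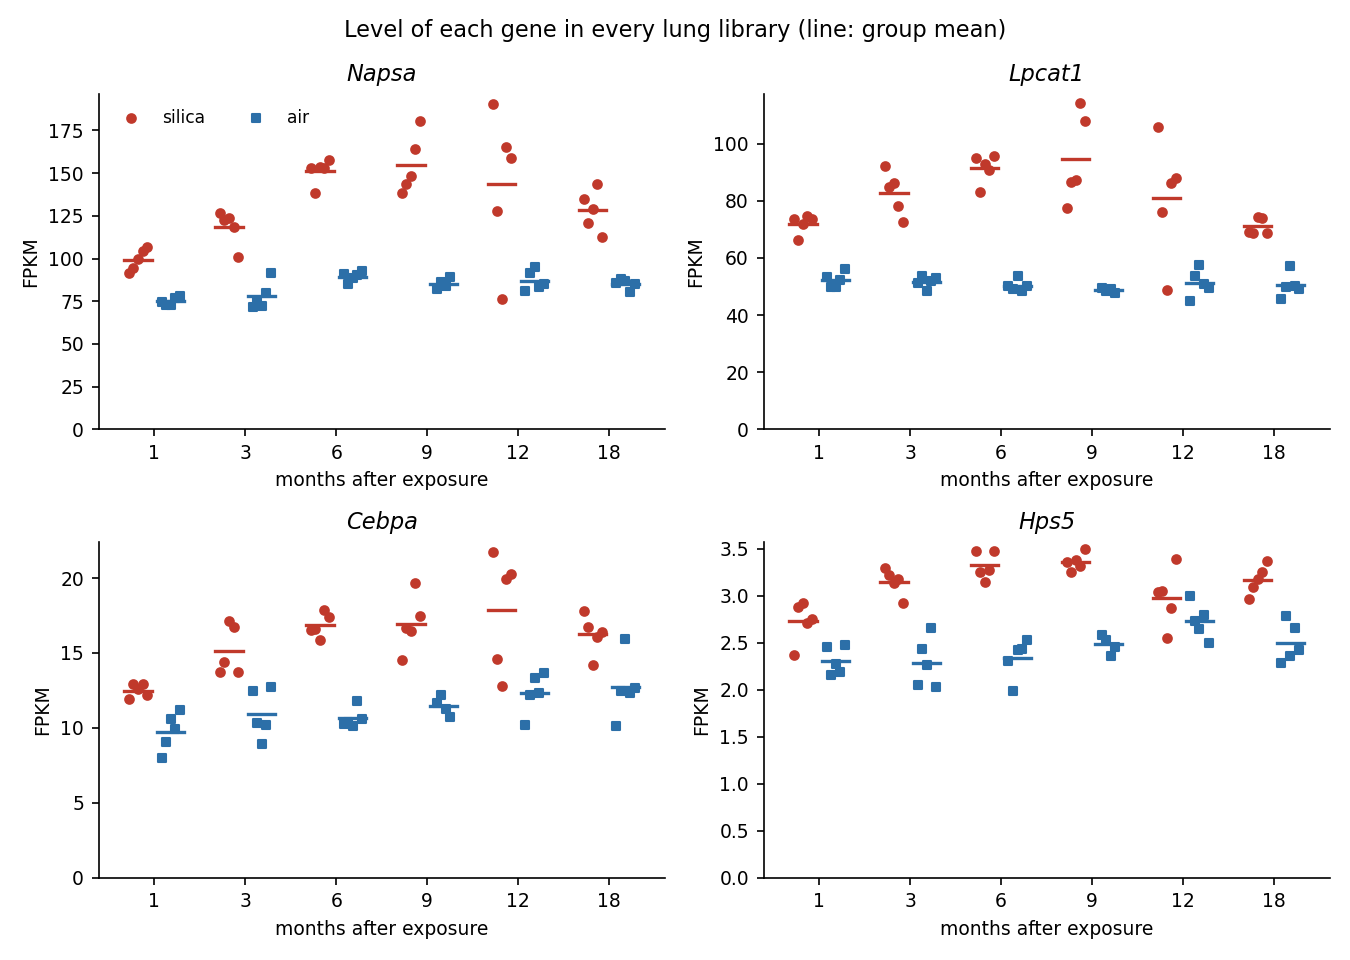
FPKM of the 4 genes in every library (points: silica circles on the left, air squares on the right of each time; line: group mean) against months after exposure. Silica lies above air at most times, with Lpcat1 up to 114 FPKM and Napsa up to 191 FPKM in silica, and replicate 3 of the 12-month silica group lies at or below the air level (48.9 FPKM for Lpcat1, 76.5 FPKM for Napsa).

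Lpcat1, the acyltransferase of surfactant phosphatidylcholine, had 73.4, 66.2, 72.0, 74.8 and 73.5 FPKM in the silica libraries at 1 month, against 53.2, 49.7, 49.7, 52.4 and 56.3 FPKM in air libraries. At 3 months its values were 92.3, 84.9, 86.3, 78.2 and 72.6 FPKM in silica and 51.2, 53.7, 48.5, 52.0 and 53.0 FPKM in air. Every silica value lay above every air value at both times, with log2 changes of 0.46 ± 0.10 (SE; adjusted p = 0.00252) and 0.67 ± 0.10 (adjusted p = 1.64e-06). At 6 months silica lungs held 95.0, 83.1, 92.7, 90.9 and 95.8 FPKM and air lungs 50.0, 49.2, 53.6, 48.4 and 50.2 FPKM. The 9-month values were 77.4, 86.5, 87.3, 114 and 108 FPKM in silica and 49.6, 48.4, 49.0 and 47.7 FPKM in the 4 air libraries. The groups did not overlap, and the change was largest here, 0.86 ± 0.10 at 6 months (adjusted p = 1.09e-08) and 0.94 ± 0.11 at 9 months (adjusted p = 7.31e-09), or 1.92-fold. At 12 months silica libraries gave 106, 76.0, 48.9, 86.2 and 88.0 FPKM, and air libraries 45.1, 53.7, 57.6, 50.7 and 49.6 FPKM. Replicate 3, at 48.9 FPKM, lay inside the air range while the other 4 lay above it, and the change was 0.61 ± 0.10 (adjusted p = 2.14e-05), or 0.78 without that library (adjusted p = 6.96e-11). It was not called with the 12-month groups fitted alone (adjusted p = 0.115). At 18 months the values were 69.2, 68.8, 74.3, 74.1 and 68.6 FPKM in silica and 45.8, 49.7, 57.1, 50.3 and 49.2 FPKM in air, again without overlap, a change of 0.49 ± 0.10 (adjusted p = 4.97e-04). The 6 silica groups had the 6 highest of the 12 group means, from 94.6 ± 15.6 FPKM at 9 months to 71.0 ± 2.91 FPKM at 18 months (SD, n = 5), and the lowest silica mean was separated from the highest air mean, 52.2 ± 2.75 FPKM at 1 month, without overlap of their libraries.

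Napsa, the napsin A protease, was measured at 91.3, 94.2, 99.8, 104 and 107 FPKM in silica libraries at 1 month and at 74.8, 72.7, 72.8, 76.8 and 78.1 FPKM in air libraries. The groups did not overlap, and the change was 0.40 ± 0.11 (adjusted p = 0.0169). That call was lost without air replicate 2 (adjusted p = 0.0546) or silica replicate 5 (0.0576), and after median centring of the libraries (0.31, adjusted p = 0.0669). At 3 months silica lungs had 126, 122, 124, 119 and 101 FPKM and air lungs 71.5, 74.3, 72.5, 79.9 and 91.4 FPKM, a change of 0.60 ± 0.11 (adjusted p = 8.74e-05). The 6-month values were 153, 139, 154, 153 and 158 FPKM in silica and 90.8, 84.9, 88.3, 90.3 and 92.6 FPKM in air. At 9 months they were 138, 144, 148, 164 and 181 FPKM in silica and 82.1, 86.0, 84.1 and 89.0 FPKM in air. Silica lay above air in all libraries of these 3 times, by 0.75 ± 0.11 at 6 months (adjusted p = 1.31e-06) and 0.85 ± 0.12 at 9 months (adjusted p = 5.56e-07), or 1.81-fold. At 12 months silica libraries gave 191, 128, 76.5, 165 and 159 FPKM and air libraries 81.1, 91.4, 95.0, 83.1 and 85.0 FPKM. Replicate 3 was below all 5 air values and the other 4 silica values above them, and the change was 0.66 ± 0.11 (adjusted p = 3.02e-05), or 0.87 without that library (adjusted p = 5.75e-12). This change was not called with the 12-month groups fitted alone (adjusted p = 0.121). At 18 months the values were 135, 121, 129, 144 and 113 FPKM in silica and 85.6, 88.0, 86.8, 80.5 and 84.9 FPKM in air, without overlap, a change of 0.58 ± 0.11 (adjusted p = 2.39e-04) that was 0.22 and not called after quantile normalization (adjusted p = 0.192). As for Lpcat1, the silica groups had the 6 highest group means, though the lowest of them, 99.3 ± 6.57 FPKM at 1 month, overlapped the highest air mean, 89.4 ± 2.95 FPKM at 6 months, in single libraries.

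Cebpa, the transcription factor, stood at 11.9, 12.9, 12.6, 12.9 and 12.2 FPKM in silica libraries at 1 month, and at 8.0, 9.04, 10.6, 9.95 and 11.2 FPKM in air libraries. Silica lay above air in all of them, by 0.35 ± 0.10 (adjusted p = 0.0256), but the call was lost without air replicate 1 (adjusted p = 0.105), air replicate 2 (0.0841) or silica replicate 4 (0.0572), after median centring (0.26, adjusted p = 0.116) and after quantile normalization (0.25, adjusted p = 0.0901). At 3 months silica libraries had 13.7, 14.4, 17.2, 16.7 and 13.7 FPKM and air libraries 12.4, 10.4, 8.90, 10.2 and 12.7 FPKM. At 6 months silica libraries had 16.6, 16.6, 15.8, 17.9 and 17.4 FPKM, while air libraries had 10.3, 10.4, 10.1, 11.8 and 10.6 FPKM. Neither pair of groups overlapped, with changes of 0.46 ± 0.10 (adjusted p = 0.00111) and 0.64 ± 0.10 (adjusted p = 5.69e-06), and the 6-month change was the highest of the 6 for this gene. The 9-month values were 14.5, 16.7, 16.4, 19.6 and 17.5 FPKM in silica and 11.7, 12.2, 11.3 and 10.7 FPKM in air, a change of 0.54 ± 0.11 (adjusted p = 1.70e-04) without overlap. At 12 months silica libraries gave 21.7, 14.6, 12.8, 19.9 and 20.3 FPKM, and air libraries gave 10.2, 12.2, 13.3, 12.3 and 13.7 FPKM. Replicate 3 alone lay inside the air range, and the change was 0.50 ± 0.10 (adjusted p = 4.84e-04), or 0.60 without it (adjusted p = 5.46e-06). That change was not called with the 12-month groups fitted alone (adjusted p = 0.115). At 18 months silica had 17.8, 16.7, 14.2, 16.1 and 16.4 FPKM and air had 10.1, 12.5, 15.9, 12.3 and 12.7 FPKM. Here air replicate 3, at 15.9 FPKM, exceeded 1 of the silica values, and the change of 0.35 ± 0.10 (adjusted p = 0.0166) was not called without air replicate 1 (adjusted p = 0.0873) or silica replicate 1 (0.0511), or with the 18-month groups fitted alone (0.0504). By group mean the silica groups of 12, 9, 6, 18 and 3 months came first, from 17.9 ± 3.90 to 15.2 ± 1.66 FPKM, followed by air at 18 months, 12.7 ± 2.06 FPKM, and silica at 1 month, 12.5 ± 0.442 FPKM. Air at 1 month was lowest, 9.76 ± 1.27 FPKM, and every group overlapped its neighbours in this order.

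Hps5, the BLOC-2 subunit, was the least abundant and had the smallest change. At 1 month it had 2.37, 2.88, 2.92, 2.71 and 2.76 FPKM in silica libraries and 2.46, 2.16, 2.27, 2.19 and 2.47 FPKM in air libraries. Silica replicate 1 lay within the air range, and the change of 0.20 ± 0.059 (adjusted p = 0.0232) was not called without air replicate 2 (adjusted p = 0.0875) or 4 (0.0562) or silica replicate 2 (0.0610), 3 (0.0676) or 5 (0.0564), after median centring (0.11, adjusted p = 0.287), after quantile normalization (0.16, adjusted p = 0.0918) or with that time fitted alone (0.0943). At 3 months silica libraries gave 3.29, 3.22, 3.14, 3.18 and 2.92 FPKM and air libraries 2.05, 2.43, 2.27, 2.66 and 2.03 FPKM. The values at 6 months were 3.48, 3.26, 3.15, 3.27 and 3.48 FPKM in silica and 2.31, 1.99, 2.42, 2.44 and 2.53 FPKM in air. At 9 months silica gave 3.36, 3.25, 3.38, 3.32 and 3.5 FPKM and air 2.58, 2.54, 2.36 and 2.45 FPKM. None of these 3 times showed overlap, and the changes were 0.39 ± 0.059 (adjusted p = 1.45e-06), 0.43 ± 0.059 (adjusted p = 1.25e-07) and 0.37 ± 0.062 (adjusted p = 7.62e-06). At 12 months the values were 3.04, 3.05, 2.55, 2.87 and 3.39 FPKM in silica and 3.00, 2.74, 2.65, 2.80 and 2.49 FPKM in air. Silica replicates 3 and 4 lay inside the air range and the change, 0.10 ± 0.059, was not called (adjusted p = 0.202); without silica replicate 3 it was 0.15 and called (adjusted p = 0.0445). Air lungs at 12 months had the highest Hps5 of the 6 air groups, 2.73 ± 0.186 FPKM (SD, n = 5), against 2.5 ± 0.210 FPKM at 18 months and 2.48 ± 0.0968 FPKM (n = 4) at 9 months. At 18 months silica had 2.96, 3.10, 3.18, 3.25 and 3.37 FPKM and air 2.29, 2.78, 2.36, 2.66 and 2.42 FPKM, once more without overlap, a change of 0.29 ± 0.059 (adjusted p = 4.10e-04). By group mean Hps5 was highest in silica at 9 months, 3.36 ± 0.0905 FPKM, and lowest in air at 3 months, 2.29 ± 0.265 FPKM. Silica at 1 month, 2.73 ± 0.219 FPKM, was just below air at 12 months, and neighbours in the order overlapped throughout.

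**Figure D2:**
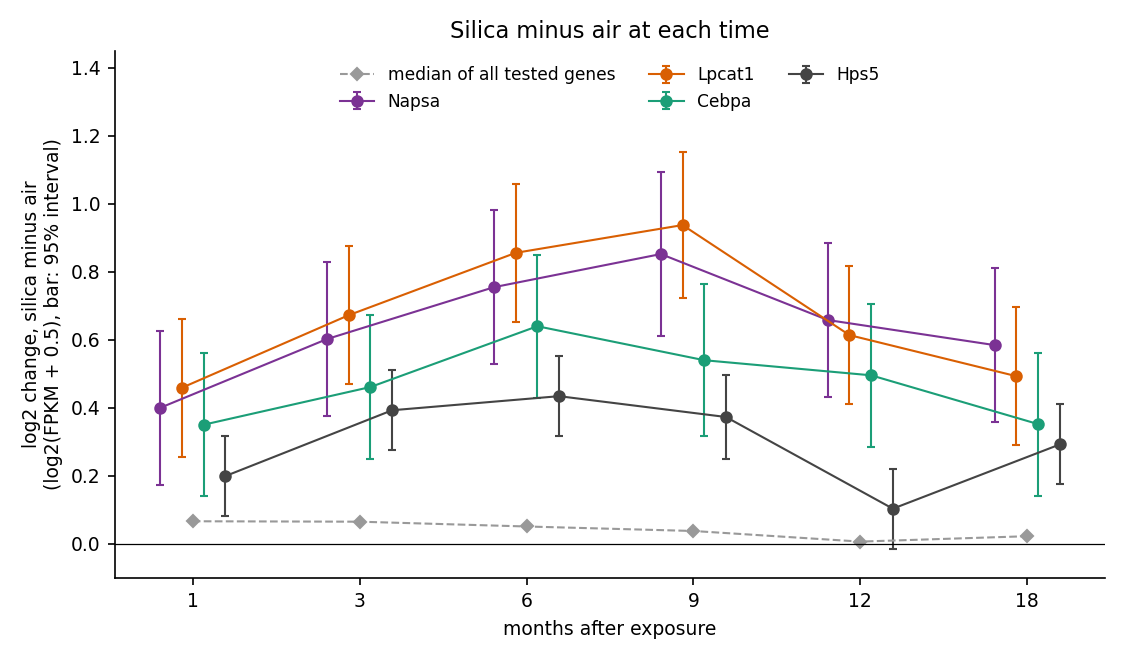
Log2 change, silica minus air, of log2(FPKM + 0.5) against months after exposure for the 4 genes (points with 95% confidence intervals) and the median of all tested genes (grey diamonds, no interval). Lpcat1 and Napsa peak at 9 months (0.94 and 0.85), Cebpa and Hps5 at 6 months (0.64 and 0.43), and the median of all tested genes stays between 0.0065 and 0.066.

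The 4 genes, chosen with earlier results of these data known, were set beside all tested genes. The median change of the 4 genes was 0.38, 0.53, 0.70, 0.70, 0.55 and 0.42 from the 1-month to the 18-month comparison, beside medians of 0.066, 0.065, 0.051, 0.038, 0.0065 and 0.022 over all tested genes. At 1 month 4 of the 4 were called higher, where 8.45% of tested genes were. The counts were 4 of 4 at 3 months (15.9% of tested genes), 4 of 4 at 6 months (21.2%), 4 of 4 at 9 months (19.5%), 3 of 4 at 12 months (14.6%) and 4 of 4 at 18 months (11.8%). In the mean over times all 4 were called, as were 37.5% of tested genes. Lpcat1 ranked 39 of 1278 by its mean change, counted from the highest (0.67 ± 0.042, adjusted p = 4.15e-19), Napsa 42 (0.64 ± 0.047, 8.86e-17), Cebpa 68 (0.47 ± 0.043, 1.67e-13) and Hps5 156 (0.30 ± 0.024, 3.14e-15). The split of calls over all genes depended on scaling. Of the genes called in the mean over times 65.1% were higher in silica, against 44.1% after median centring and 41.1% after quantile normalization. At single times the share was 61.6% to 95.6%, against 47.6% to 58.9% and 43.4% to 61% under these scalings, and in the air comparison of 18 with 1 month 79.6%, against 42.5% and 48.5%. The 4 genes were called higher in that mean under all 13 alternatives and without each of the 59 libraries in turn, with log2 changes of 0.57 to 0.71 for Lpcat1, 0.49 to 0.69 for Napsa, 0.37 to 0.50 for Cebpa and 0.24 to 0.34 for Hps5 over the alternatives.

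Lpcat1, Napsa and Cebpa were each called higher at 6 of 6 times, as were 41 of the 1278 tested genes (3.21%), and Hps5 was called at 5, as were 97 genes (7.59%) at 5 or more. Complete separation, every silica library above every air library, was seen at 5 times for Lpcat1 and Napsa and at 4 for Cebpa and Hps5. At 1 month 3 of the 4 genes were separated, beside 8.06% of tested genes. All 4 were separated at 3, 6 and 9 months, beside 11.0%, 20.6% and 16.0% of tested genes. At 12 months 0 of the 4 were separated, and the share over all tested genes was 1.64%. Without replicate 3 of the silica group, the silica means at 12 months were 89.0 ± 12.4 FPKM for Lpcat1, 161 ± 25.8 for Napsa, 19.1 ± 3.13 for Cebpa and 3.09 ± 0.220 for Hps5 (SD, n = 4). With the 12-month groups fitted alone 0 of the 4 genes were called in limma, at adjusted p of 0.115 for Lpcat1, 0.121 for Napsa and 0.115 for Cebpa, in a fit that called 1 gene in all, beside 302 in the fit over all groups. The exact permutation test of silica against air at 12 months gave an unadjusted p of 0.0397 for Lpcat1, 0.0476 for Napsa, 0.0238 for Cebpa and 0.159 for Hps5. At 18 months 3 of the 4 genes were separated, beside 9.23% of tested genes.

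The size of the change followed a similar course in the 4 genes, with lower values at 1 and 18 months than at 6 and 9 months, but the tests did not establish that it varied. In limma's F test of equal change at all 6 times, 0 of the 4 genes were called, beside 1.33% of tested genes. The adjusted p was 0.0717 for Hps5, 0.167 for Lpcat1, 0.419 for Napsa and 0.651 for Cebpa. Lpcat1 and Hps5, 2 of the 4, had an unadjusted p under 0.05, as did 211 of the 1278 tested genes. Without replicate 3 of the 12-month silica group the test called Lpcat1 (adjusted p = 0.00864) and Napsa (0.0168). It called Hps5 without air replicate 4 of 3 months (0.0387), air replicate 5 of 12 months (0.0439) or silica replicate 5 of 12 months (0.0358). The change at 18 months less that at 1 month was 0.034 ± 0.14 for Lpcat1, 0.18 ± 0.16 for Napsa, 0.0019 ± 0.15 for Cebpa and 0.093 ± 0.083 for Hps5 (SE). Limma called 0 of 4, beside 0.156% of tested genes, and 0 of 4 had an unadjusted p under 0.05, beside 127 of the 1278. The 95% confidence intervals of these differences reached from -0.25 to 0.32 for Lpcat1, -0.14 to 0.51 for Napsa, -0.30 to 0.30 for Cebpa and -0.073 to 0.26 for Hps5. The sign of 3 of these differences depended on the processing, with -0.22 for Napsa and -0.059 for Lpcat1 after quantile normalization and -0.00096 for Cebpa with a pseudocount of 0.1. Between neighbouring times limma called 0 of 4 in each of the 5 comparisons, beside 0.156% of tested genes from 1 to 3 months, 0.235% from 3 to 6 months and 0.00% in each of the remaining 3. Over all tested genes the unadjusted p was under 0.05 for 129 of 1278 from 1 to 3 months, 78 from 9 to 12 months and 63 from 12 to 18 months. Among the 4 it was under 0.05 for Hps5 from 1 to 3 months (0.19 ± 0.083), for Lpcat1 (-0.32 ± 0.15) and Hps5 (-0.27 ± 0.085) from 9 to 12 months and for Hps5 from 12 to 18 months (0.19 ± 0.083). The 12-month silica group with its replicate 3 enters the last 3 of these, and without that library they were -0.15, -0.22 and 0.14, with 0 called.

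Some of the 4 genes differed in the size of their rise, but these differences depended on the processing. The log2 ratio of 2 genes within a library was compared between silica and air at each time for all 6 pairs, 36 comparisons, with an exact two-sided permutation test whose smallest possible p is 0.00794, adjusted over the 36. The ratio of Lpcat1 to Hps5 was higher in silica at 1 month (by 0.26), 3 months (0.28) and 6 months (0.42), and that of Napsa to Hps5 at 6 months (0.32) and 9 months (0.48), each with adjusted p = 0.0408. Lpcat1 over Cebpa averaged 2.44 ± 0.11 in silica and 2.04 ± 0.069 in air at 9 months (log2, SD, n = 5 and 4), a difference of 0.40, and Napsa over Cebpa 3.16 ± 0.12 in silica and 2.84 ± 0.11 in air, a difference of 0.31, both with exact permutation adjusted p = 0.0408. For Lpcat1 over Napsa the differences lay between -0.091 and 0.10 and passed at 0 of 6 times, and for Cebpa over Hps5 they lay between 0.060 and 0.39 and also passed at 0 of 6 times. All 6 differences were above 0 for every pair except Lpcat1 and Napsa, where 4 of 6 were. These 7 calls sit at the smallest p the design allows, and they all missed the threshold with a pseudocount of 0.1, or when any 1 of the 9 libraries of 9 months was left out, since fewer libraries raise that smallest p. The 0.5 added to FPKM before taking logs also narrows a change more at low FPKM, as in Hps5, than at high FPKM. Without replicate 3 of the 12-month silica group 13 comparisons passed.

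Rats of the same group also differed together in 3 of the genes. Deviations from the group mean of log2(FPKM + 0.5) were correlated over the 59 libraries, with p from 100000 permutations within groups and adjusted over the 6 pairs. For Lpcat1 and Napsa Pearson's r was 0.868 (permutation adjusted p = 6.00e-05, the smallest these permutations can give) and Spearman's rho 0.745 (6.00e-05). Lpcat1 and Cebpa gave r = 0.621 (permutation adjusted p = 2.40e-04) and rho = 0.386 (0.0213), and Napsa and Cebpa r = 0.591 (0.00128) and rho = 0.454 (0.00801). Without the 2 libraries farthest from the median, replicates 3 and 1 of the 12-month silica group in each case, r was 0.699, 0.473 and 0.423 for these pairs. Hps5 did not pass with any of them, at r = 0.296 with Lpcat1, 0.313 with Napsa and 0.024 with Cebpa (adjusted p = 0.122, 0.122 and 0.894). Libraries share a scaling over all genes, and after subtracting each library's median the first 3 values were 0.850, 0.585 and 0.548.

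**Figure D3:**
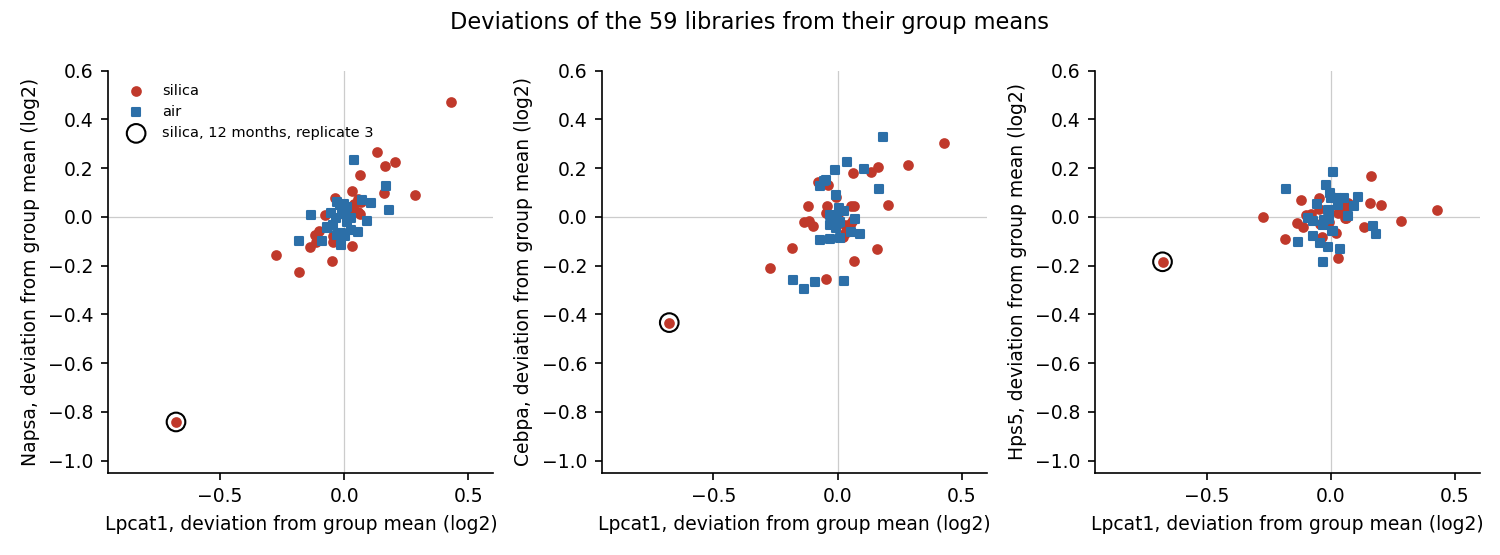
Deviation of each library from its group mean (log2(FPKM + 0.5)) for Lpcat1 on the x axis against Napsa, Cebpa and Hps5 on the y axes (circles: silica; squares: air; ring: silica, 12 months, replicate 3). The points run along a line for Napsa (r = 0.868), less closely for Cebpa (0.621), and show little relation for Hps5 (0.296).

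Between air lungs of 18 months and of 1 month only Cebpa was called. It averaged 12.7 ± 2.06 FPKM at 18 months and 9.76 ± 1.27 FPKM at 1 month (SD, n = 5 each), a log2 difference of 0.36 ± 0.10 (SE; adjusted p = 0.0101) that was not called without air replicate 1 of 1 month (0.0523) or air replicate 3 of 18 months (0.0624). The differences were 0.18 ± 0.11 for Napsa (adjusted p = 0.264), 0.09 ± 0.059 for Hps5 (adjusted p = 0.264) and -0.053 ± 0.10 for Lpcat1 (adjusted p = 0.775), which makes 1 of 4 called beside 21.8% of tested genes. An F test over the 6 air groups called Cebpa (adjusted p = 0.0450) and Hps5 (0.0217), 2 of 4 beside 28.9% of tested genes. The Cebpa call was lost without any 1 of 19 of the 29 air libraries (adjusted p up to 0.134) and the Hps5 call without air replicate 1 of 12 months (0.0827), and both when libraries were centred on their medians (0.15 and 0.131) or quantile normalized (0.0773 and 0.127). Age and any difference in handling between times cannot be told apart here.

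Other genes of the same pathways were counted from lists that each include a member of the 4, so each count partly restates the 4 genes. In the mean over times 37.5% of all tested genes were called higher, and the counts below stand beside that share. The calls of some of these others depended on scaling, while Dgat2, Rab32 and Ap3s2 were called higher under each scaling. Of the 5 genes in the table from the alveolar type 2 and surfactant list, 5 were called higher in the mean over times and 0 lower. Napsa, Lpcat1 and Cebpa are among these 5, and the list median of 0.47 is the value of Cebpa itself. The count and the median therefore mostly restate the 4 genes. The other genes of the list were Stard10, a lipid transfer protein, at 0.13 ± 0.039 (adjusted p = 0.00285) and Ppp1r14c, a phosphatase inhibitor, at 0.08 ± 0.034 (adjusted p = 0.0290), beside a median of 0.032 over all tested genes. Neither call held after median centring, where Stard10 was at 0.073 (adjusted p = 0.0678) and Ppp1r14c at 0.023 (0.571), nor after quantile normalization (0.903 and 0.933), which leaves 3 of the 5. At single times Stard10 passed at 6 months (0.26 ± 0.095) and Ppp1r14c at 3 months (0.24 ± 0.083) and 6 months (0.26 ± 0.083). Of 53 genes of phosphatidylcholine and fatty acid supply 4 were in the table and 4 were called higher, with a median of 0.40. Beside Lpcat1, which had the smallest p of this list, Dgat2, which makes triglyceride from diacylglycerol, was at 0.82 ± 0.064 (adjusted p = 8.71e-16), and Agpat4, an acyltransferase of phospholipid synthesis, was at 0.11 ± 0.030 (adjusted p = 0.00130). Agpat4 was not called after median centring (0.052, adjusted p = 0.117) or quantile normalization (0.018, 0.588), while Dgat2 was. Of 37 genes of lysosome-related organelle biogenesis 7 were in the table, 5 were tested and 3 were called higher, with a median of 0.28. Over all tested genes 37.5% were called higher. Hps5 is among the 3 and had the smallest p of them. Rab32, a small GTPase that acts with BLOC-2, was at 0.56 ± 0.067 and Ap3s2, a subunit of the adaptor complex AP-3, at 0.28 ± 0.036, both called. Both stayed called after median centring (0.50 and 0.21) and quantile normalization (0.49 and 0.20). Rab38, the close relative of Rab32 that is known for its part in rat lamellar bodies, was at -0.049 ± 0.033 and not called (adjusted p = 0.210), but it was called lower after median centring (-0.11, adjusted p = 0.00386) and quantile normalization (-0.14, 1.34e-04). The BLOC-1 subunit gene Bloc1s3 was at 0.11 ± 0.051 and not called (adjusted p = 0.0574). Rab38 and Bloc1s3 are named after their values were seen, as are Rab32, Ap3s2 and Agpat4. Among 7 genes of the CCAAT/enhancer binding family Cebpa and Cebpg were in the table and both were called, Cebpg at 0.14 ± 0.026, or 0.041 and not called after quantile normalization (adjusted p = 0.0929). Napsa was the only gene in the table from a list of 8 aspartic proteases.

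Myeloid and cell cycle markers and the 1 fibroblast marker tested were higher in silica lungs too. The 2 endothelial markers, the 1 ciliated cell marker and 2 of 3 erythrocyte markers tested were lower. Others were not called. The table held 1 of 7 fibroblast, 1 of 8 ciliated cell and 2 of 10 endothelial markers listed. Over all tested genes 37.5% were called higher in the mean over times. Of 24 macrophage and monocyte markers 7 were in the table, and 7 of 7 were called higher in the mean over times, with a median of 0.87. Lilrb4, an inhibitory receptor of myeloid cells, had the smallest p of them, at 1.12 ± 0.078 (adjusted p = 2.70e-17). Their summed FPKM ranged from 123 to 141 in silica libraries and from 88.6 to 110.1 in air libraries at 1 month. It was 139 to 162 in silica and 94.2 to 100 in air at 3 months, 175 to 189 in silica and 80.6 to 98.0 in air at 6 months, and 167 to 216 in silica and 86.1 to 117 in air at 9 months. At 12 months the sum was 82.3 to 230 in silica and 82.9 to 130 in air, and at 18 months 159 to 222 in silica and 108 to 123 in air. The ranges overlapped at 12 months and at no other time. Both neutrophil markers in the table, Cd177 and Ceacam10, were called higher (median 1.6), with a summed FPKM of 30.7 to 33.3 in silica and 5.24 to 11.2 in air at 1 month, and 41.9 to 52.2 in silica and 13.0 to 18.8 in air at 9 months. Of 5 tested cell cycle genes 5 were called higher (median 0.56), led by Mki67 at 0.72 ± 0.054, and 4 of 5 after median centring, where Pold1 was not called (0.065, adjusted p = 0.135). The fibroblast marker Cpxm2 was called higher (0.58 ± 0.052). Both endothelial markers, Ehd2 (-0.25 ± 0.027) and Rasip1 (-0.33 ± 0.046), the ciliated cell marker Ccdc114 (-0.21 ± 0.063) and 2 of 3 erythrocyte markers, led by Hbb (-0.41 ± 0.078), were called lower, but Hbb was at 0.062 and not called after quantile normalization (adjusted p = 0.681). The airway secretory markers Cyp2f4 and Cyp2a3 and the lymphocyte markers Cd22 and Cd37 were not called, at adjusted p of 0.297, 0.875, 0.110 and 0.360, and at an unadjusted p above 0.05 in limma for each. Cd22 was called lower after median centring (-0.18, adjusted p = 0.0116) and quantile normalization (-0.15, 0.0269). No alveolar type 1 marker of 10 was in the table. Of the tested markers named here none was at 0 in any group of libraries. The part of these other cells in the values of the 4 genes was not tested.

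**Figure D4:**
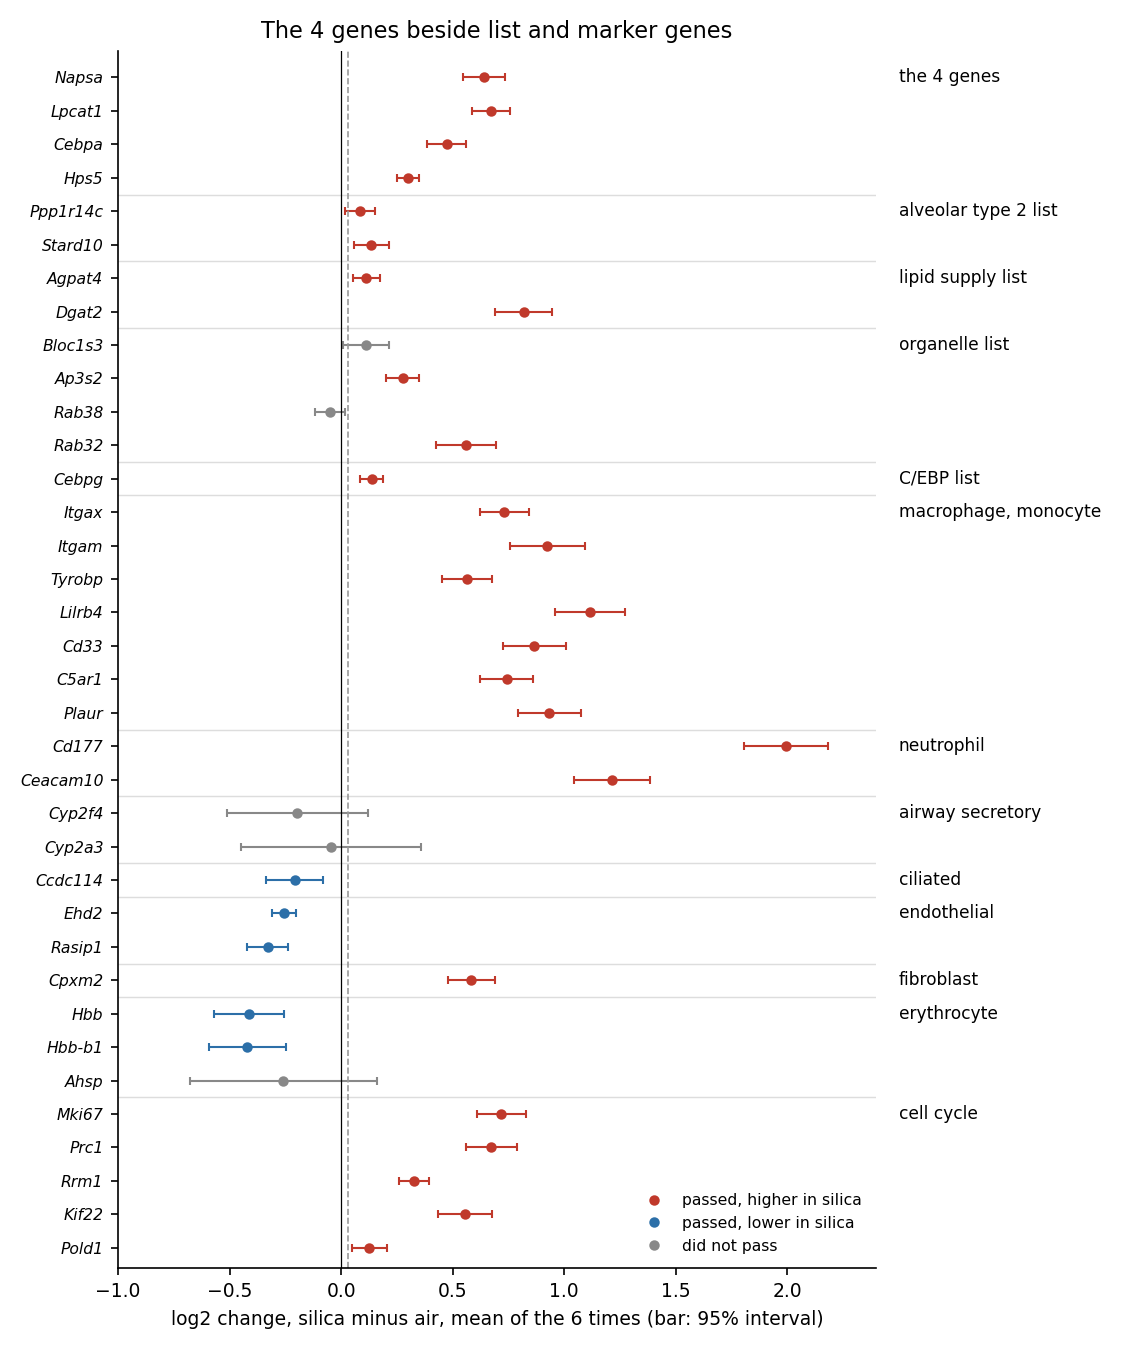
Log2 change, silica minus air, in the mean over the 6 times for the 4 genes and every tested gene of the lists except lymphocyte markers, with 95% confidence intervals (red: called higher; blue: called lower; grey: not called; dashed line: median of all tested genes, 0.032). The 4 genes lie between 0.30 and 0.67, below Cd177 at 2.0 and Lilrb4 at 1.12 and above Stard10 and Ppp1r14c, while Ehd2, Rasip1, Hbb, Hbb-b1 and Ccdc114 lie below 0.

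The genes whose group means ran most nearly in parallel with the 4 were drawn from the tested genes with a RefSeq symbol, by Pearson's r over the 12 group means of log2(FPKM + 0.5), as a description with no test. For Lpcat1 they were Ldha, lactate dehydrogenase A (r = 0.982), Cd33, a myeloid surface lectin (0.981), and Mki67, a proliferation marker (0.980). For Napsa they were Enpp3, an ectonucleotide pyrophosphatase (0.988), Apobr, a macrophage receptor for apolipoprotein B (0.987), and Pld3, a lysosomal exonuclease (0.985). Those nearest to Cebpa were Cited2, a transcriptional coregulator (0.982), Cln3, a lysosomal membrane protein (0.977), and Itgal, an integrin of leukocytes (0.965). Those nearest to Hps5 were Cln3 (0.974), C5ar1, the complement C5a receptor (0.960), and Cib1, a calcium binding protein (0.959). All 11 of these genes were themselves called higher in the mean over times, as were 37.5% of tested genes. Their log2 changes ran from 0.27 ± 0.037 for Itgal to 1.00 ± 0.066 for Enpp3. Their choice by likeness to genes that were higher in silica made such calls likely. Among the 4 genes themselves r over the 12 group means lay between 0.871 for Lpcat1 and Cebpa and 0.954. The 12 points share the contrast of silica and air.

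At 12 months the library that was low in the 4 genes among the silica libraries also stood apart in several marker lists, among them myeloid, endothelial, cell cycle and fibroblast markers. Silica replicates 1 to 5 had a macrophage and monocyte sum of 230, 166, 82.3, 227 and 199 FPKM, against 130, 116, 122, 82.9 and 106 FPKM in air replicates 1 to 5. Replicate 3 had the lowest of the 5 silica sums and lay below the air range. The neutrophil sum was 55.2, 36.2, 14.0, 45.8 and 47.9 FPKM in silica and 10.2, 13.9, 18.4, 11.9 and 17.3 FPKM in air, and the endothelial sum 61, 68.6, 86.9, 58.0 and 59.9 FPKM in silica and 88.8, 91.1, 86.0, 79.7 and 86.1 FPKM in air. Replicate 3 was at the air level in both. The cell cycle sum was 9.92 FPKM in replicate 3, within the air range of 9.81 to 11.3 FPKM, and 15.2 to 19.0 FPKM in the other silica libraries. For the fibroblast marker Cpxm2 replicate 3 had 3.54 FPKM, below the air range of 3.65 to 4.45 FPKM, and the other silica libraries had 5.15 to 6.48 FPKM. Among the 5 air libraries, replicate 1 had the highest macrophage and monocyte sum and the lowest Lpcat1 (45.1 FPKM), Napsa (81.1 FPKM) and Cebpa (10.2 FPKM). Silica replicate 2, with the next lowest myeloid sums of the silica libraries, also had their next lowest Lpcat1 (76.0 FPKM), Napsa (128 FPKM) and Cebpa (14.6 FPKM). The next lowest Hps5 was 2.87 FPKM in silica replicate 4. These are single libraries, and the part of other cells in these values was not tested.

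**Figure D5:**
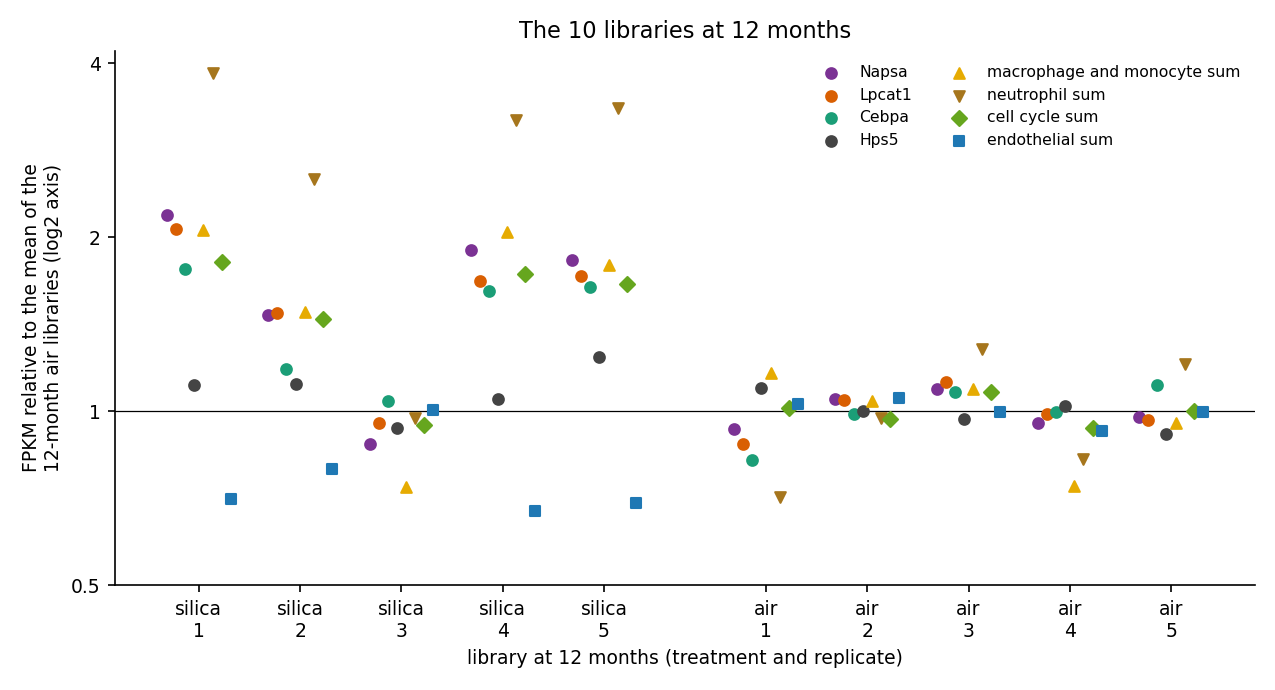
FPKM of the 4 genes and summed FPKM of 4 marker lists in each library at 12 months, relative to the mean of the 5 air libraries (log2 axis; x axis: treatment and replicate, silica on the left). Silica replicates 1, 2, 4 and 5 lie above 1 for all but the endothelial sum, and replicate 3 lies within the range of the air libraries or, for Napsa and the macrophage and monocyte sum, below it.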

How the data were processed

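Lung RNA of 59 male rats in 12 groups (silica or air, 6 times) was measured by sequencing of ribosome-depleted total RNA (TruSeq Stranded Total RNA with Ribo-Zero Gold), per the labels' protocols. The authors deposited FPKM values per gene and library. Per the submitters' processing notes, Cufflinks 2.1.1, TopHat2 2.0.9, Bowtie2 2.2.9, Trimmomatic 0.35 and bcl2fastq 2.19 were used, in an order they do not give. The genome build, the annotation and the read depth are not given in the sources used here, and FPKM, being scaled to each library's total, moves for all genes when a few abundant ones change. The table held 2888 entries, of which 1 was incomplete and left out, and mostly genes of chromosome 1.

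Genes with at least 1 FPKM in at least 4 libraries were kept (1278), and log2(FPKM + 0.5) was fitted in limma 3.58.1 (R 4.3.3) with 1 mean per group, 47 residual degrees of freedom and variances moderated along a trend in mean level. Limma's p-values were two-sided and adjusted by the Benjamini-Hochberg method over the 1278 genes. They rest on 1 spread per gene, pooled over the rats of all groups, and not on the spread within the groups compared. For each of the 4 genes the SD was largest in the 12-month silica group, so results with that time fitted alone are given too. Replicate numbers follow the order of deposit and pair nothing. The labels give no batch. Ratios between genes used exact permutation tests, which were also run for silica against air at each time. The fit was tested before use on simulated data in which each gene had the same normal spread in all groups. That simulation held no shared library scaling and no outlying library, so it says nothing about their effect. Figures were drawn with matplotlib 3.10.9 (Python 3.11.15).

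Gene names were matched to RefSeq, 1729 as symbols and 332 as synonyms. The 4 genes, the lists and the markers were chosen with earlier results of these data known. Genes named beside the 4 were the called gene of each list with the smallest p in each direction in the mean over times, and the 3 genes most like each of the 4 over group means. Other genes named were chosen after their values were seen. Alternatives were other pseudocounts (0.1 and 1), no filter, median centring, quantile normalization, no variance trend, each time fitted alone, leaving out each time and leaving out each library. 1 marker gene is not reported here. The scaling of list and marker genes was added after seeing the data.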

Additional observations from a re-analysis of the deposited data

Results flagged for a closer look

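Among 48 sets of values, 4 genes in 12 groups, 1 had a library set apart from the others of its group by more than Dixon's 95% critical value, where chance gives about 1 in 20. Napsa had 138.6 FPKM in silica, 6 months, replicate 2, while the other 4 silica libraries of that time lay between 152.9 and 157.7 FPKM. The gap made up 0.749 of the group's range. The value is still above the highest air value at 6 months, 92.6 FPKM.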

How the results depend on the processing

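In the mean over times and at 3, 6 and 9 months, 4 of the 4 genes were called under all alternatives run, and no change between silica and air at a single time or in the mean turned its sign. At 1 month 1 of 4 was called after median centring and 2 after quantile normalization. At 12 months 0 were called when that time was fitted alone. In the air F test 1 was called with no filter, 0 after median centring and 0 after quantile normalization, beside 2 otherwise. With a pseudocount of 0.1, 0 of the 36 ratio comparisons passed, beside 7. Some differences between times, none of them called, turned their sign. The change at 18 months less that at 1 month was -0.00096 for Cebpa with a pseudocount of 0.1, and -0.059 for Lpcat1 and -0.22 for Napsa after quantile normalization, where the change at 3 months less that at 1 month was -0.099 for Napsa. The correlation of Cebpa and Hps5 was -0.053 after subtracting library medians. Without each library in turn, Cebpa ranged from -0.072 to 0.084 for 18 less 1 month and from -0.12 to 0.064 for 12 less 9 months. Napsa ranged from -0.31 to 0.016 for 12 less 9 months and from -0.28 to 0.044 for 18 less 12 months, and Hps5 from -0.0049 to 0.075 for 6 less 3 months. The causes were not tested, and the list genes whose calls changed with scaling are given with their values above. Without each library in turn the number called was 1 to 4 at 1 month, 3 to 4 at 12 months, 3 to 4 at 18 months, 0 to 1 in the air comparison of 18 with 1 month, 1 to 2 in the air F test and 0 to 2 in the F test of variation in the change. The number of ratio comparisons passed was 0 to 13.

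Over all genes, 113 were called at 1 month, against 65 after median centring, 44 without air replicate 2 and 66 without silica replicate 5. At 12 months 302 were called, against 1 with that time alone and 194, 196 and 457 without silica replicates 1, 4 and 3. At 18 months 196 were called, against 130 with that time alone and 112 without silica replicate 4. The F test of variation called 17, and 78 without silica, 12 months, replicate 3. No paired analysis was possible because the replicate numbers follow the order of deposit and the labels tie no silica rat to an air rat. Depth is unknown, and FPKM values carry no counting error of their own. The surfactant protein genes and most markers of type 2 cells were not analysed here.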
